A study of Mus musculus with 8 samples.

Results

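The 10 chemokine genes *Ccl2*, *Ccl7*, *Ccl11*, *Cxcl1*, *Cxcl5*, *Cxcl10*, *Cxcl12*, *Cxcl14*, *Cxcl16* and *Cx3cl1* were taken by name from the 31053 genes of the count tables. They were compared between 2 cell states of fibro/adipogenic progenitors (FAPs), the stromal progenitors of skeletal muscle that can give rise to fibroblasts and adipocytes. FAPs were sorted from the hind limb muscles of C57BL/10ScSn-Dmdmdx/J mice (*mdx*, a model of Duchenne muscular dystrophy that carries a mutation in the dystrophin gene *Dmd*), 45 days old by the labels. The sort kept CD45- CD31- Integrin alpha-7- SCA-1+ cells and split them by the surface level of SCA-1 into SCA1-High-FAPs and SCA1-Low-FAPs, 4 samples each. According to the design text the 4 replicates of both states came from 4 mice. The labels do not say which samples of the 2 states share a mouse, so the main test was unpaired. Both states were then grown for 5 days in medium with fetal bovine serum before the RNA was taken, so that every sample was dystrophic and cultured, and no wild-type sample entered the comparison. The 2 states were compared with each other, and SCA1-High-FAPs were the reference of the fold changes.

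Chemokines are small secreted proteins that bind G protein-coupled receptors and direct the migration of leucocytes, and many are held in the tissue by heparan sulfate. They are named after the spacing of a pair of cysteines near the start of the mature protein. In injured and dystrophic muscle, stromal cells are among the sources of chemokines for monocytes, neutrophils and eosinophils. *Ccl2* and *Ccl7* encode ligands of the monocyte receptor CCR2, and *Ccl11* encodes eotaxin, a ligand of CCR3 on eosinophils. *Cxcl1* and *Cxcl5* encode ligands of CXCR2 on neutrophils, and *Cxcl10* encodes an interferon-induced ligand of CXCR3 on T cells. *Cxcl12* encodes the ligand of CXCR4 and ACKR3, which retains haematopoietic cells near stroma. *Cxcl14* encodes a chemokine made by many epithelia and fibroblasts. *Cxcl16* and *Cx3cl1* encode chemokines that are made as transmembrane proteins and can be shed by proteases, with the receptors CXCR6 and CX3CR1.

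The coding stretch around the cysteine pair is shown for each gene, since the chemokine classes are named after it. Each runs 5′ to 3′ on the coding strand and was read from a GENCODE M21 transcript (GRCm38). Capitals mark the codons of the cysteine pair and, in *Cxcl1* and *Cxcl5*, also the Glu-Leu-Arg codons just before it, which mark CXC chemokines that act on neutrophils.
Ccl2: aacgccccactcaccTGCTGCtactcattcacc
Ccl7: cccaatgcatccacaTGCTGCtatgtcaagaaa
Ccl11: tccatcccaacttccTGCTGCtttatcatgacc
Cxcl1: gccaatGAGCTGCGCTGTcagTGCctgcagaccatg
Cxcl5: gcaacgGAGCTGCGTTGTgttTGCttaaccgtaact
Cxcl10: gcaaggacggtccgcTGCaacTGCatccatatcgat
Cxcl12: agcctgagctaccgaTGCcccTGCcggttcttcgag
Cxcl14: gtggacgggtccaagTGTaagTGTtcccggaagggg
Cxcl16: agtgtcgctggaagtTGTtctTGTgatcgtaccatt
Cx3cl1: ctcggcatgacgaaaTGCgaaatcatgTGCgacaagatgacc

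The pair was searched for with the spacing that the gene name implies, so the spacing is no result. The codons touch in the 3 CC genes, 1 codon lies between them in the 6 CXC genes, and 3 codons do in *Cx3cl1*. The coding sequences of the secreted chemokines held 93 (*Cxcl12*) to 148 (*Ccl2*) codons, against 246 for *Cxcl16* and 395 for *Cx3cl1*. *Ccl2*, *Ccl7* and *Ccl11* are neighbours on chromosome 11, with gaps of 8.26 kb and 10.3 kb, and *Cxcl5* and *Cxcl1* lie 129.62 kb apart on chromosome 5.

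Libraries held 1880561 to 3985656 reads assigned to genes, and a count of 0 allows up to 3 counts, or 0.792 to 1.63 CPM (counts scaled to the library total after TMM normalisation) according to the library, which covers counting error only. Reads aligned to several positions, which are not assigned to genes, made up 37.5% to 39.7% of the reads in SCA1-High-FAPs and 40.8% to 43.3% in SCA1-Low-FAPs, so that the states did not overlap, and the part of this in the results was not tested. *Pdgfra*, a defining marker of FAPs, was read at 177 to 291 CPM in SCA1-High-FAPs and at 157 to 188 CPM in the other state (log2 fold change −0.41, adjusted p = 0.159 by edgeR). All 9 FAP markers were tested and 4 were called, in both directions: *Dcn* (decorin, −2.08) and *Gsn* (gelsolin, −0.72) were higher in SCA1-High-FAPs, *Thy1* (CD90, 0.67) and *Ly6a* in SCA1-Low-FAPs. *Ly6a*, the gene of SCA-1, went against the names of the states at harvest: it was read at 492 to 919 CPM in SCA1-High-FAPs and at 1014 to 1156 CPM in SCA1-Low-FAPs, with a log2 fold change of 0.61 (SE 0.17, adjusted p = 0.0341, edgeR quasi-likelihood test). The states are therefore named by the sort before culture and not by their *Ly6a* mRNA at harvest. All log2 fold changes are SCA1-Low-FAPs over SCA1-High-FAPs. A gene was called when its adjusted p was under 0.05 and its log2 fold change over 0.5 in size. By this rule 782 of the 10181 genes tested were called (7.68%), with 338 higher in SCA1-Low-FAPs (3.32%) against 444 with the higher level in SCA1-High-FAPs (4.36%). The CPM of 1438 genes did not overlap between the states (14.1%). The number called fell to 417 without SCA1-Low-FAPs replicate 1 and to 410 without SCA1-Low-FAPs replicate 4.

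Of the 10 chemokines, 8 passed the filter on low counts and 3 of these were called, where 7.68% of all genes tested were. *Cxcl14* had its higher level in SCA1-Low-FAPs, *Cxcl12* and *Cxcl16* theirs in SCA1-High-FAPs. The other 5, namely *Ccl2*, *Ccl7*, *Cxcl1*, *Cxcl5* and *Cx3cl1*, were not called, and *Ccl11* and *Cxcl10* were too low to be tested. The 4 genes *Ccl2*, *Cxcl12*, *Cxcl14* and *Cxcl16* did not overlap between the states, as 14.1% of all genes tested did not. By their fitted log2 fold changes, from −2.52 to 1.53, 4 of the 8 lay on each side of 0, with a median of 0.02 against 0.00029 over all genes tested.

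**Figure D1:**
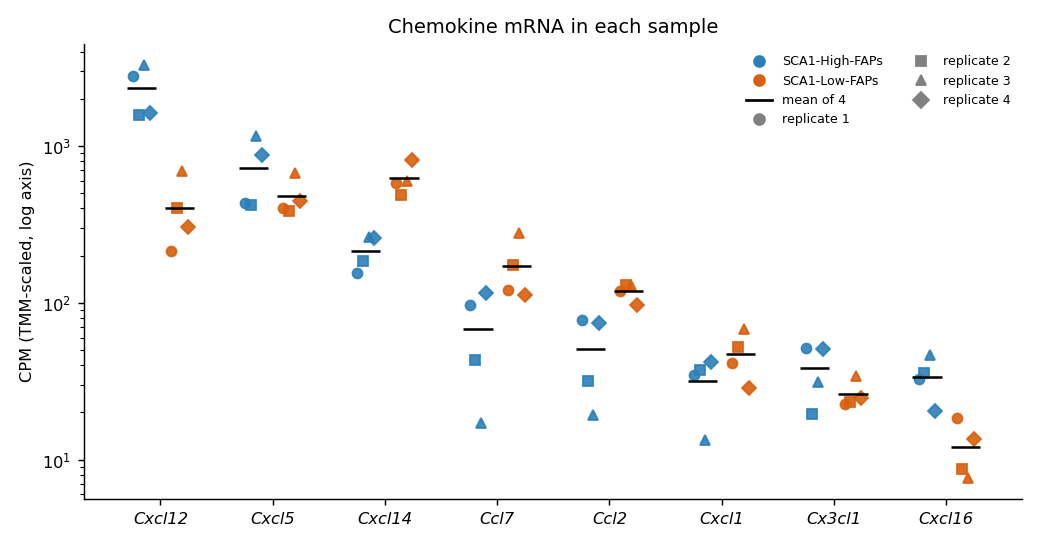
CPM (log axis) of the 8 tested chemokines in each of the 4 SCA1-High-FAPs (blue) and 4 SCA1-Low-FAPs (orange) samples, with marker shapes for the replicate number and black lines for the mean of 4. *Cxcl12* ran from 1583 to 3300.4 CPM in SCA1-High-FAPs and from 215 to 693 CPM in SCA1-Low-FAPs, whereas *Cxcl14* stood the other way round.

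*Cxcl12* (ENSMUSG00000061353, GRCm38 chromosome 6, 117168535 to 117181367, plus strand) was the chemokine with the most reads in SCA1-High-FAPs. It was read at 2790.0, 1583, 3300.4 and 1633 CPM in SCA1-High-FAPs replicates 1 to 4 and at 215, 402, 693 and 304 CPM in SCA1-Low-FAPs replicates 1 to 4. Every SCA1-High-FAPs sample lay above every SCA1-Low-FAPs sample, and replicate 3 was the highest of both states. The means were 2326.5 ± 856 CPM and 404 ± 208 CPM (SD, n = 4 each), so that with all genes ordered by mean CPM it took place 32 in SCA1-High-FAPs and place 365 in the other state. These ranks use 3′ reads, which are not divided by transcript length. The log2 fold change was −2.52 (SE 0.42, 95% interval −3.49 to −1.56, adjusted p = 0.0103 by edgeR), or 5.75-fold lower in SCA1-Low-FAPs. Without SCA1-Low-FAPs replicate 4 the adjusted p rose to 0.0539 (log2 fold change −2.42), so that this call was lost. In bulk RNA, fewer cells of a type and less RNA per cell cannot be told apart.

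*Cxcl14* (ENSMUSG00000021508, chromosome 13, 56288643 to 56296551, minus strand) moved in the opposite direction. It was read at 155, 186, 261 and 260 CPM in SCA1-High-FAPs replicates 1 to 4 and at 582, 488, 597 and 815 CPM in SCA1-Low-FAPs replicates 1 to 4. The lowest SCA1-Low-FAPs sample lay well above the highest SCA1-High-FAPs sample. The means were 215 ± 53.6 and 621 ± 138 CPM (SD, n = 4 each), and the log2 fold change was 1.53 (SE 0.19, 95% interval 1.12 to 1.93, adjusted p = 0.000394 by edgeR), or 2.88-fold higher in SCA1-Low-FAPs. By p-value it was number 10 of all genes tested, and it stayed called in each of 12 alternative fits.

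**Figure D2:**
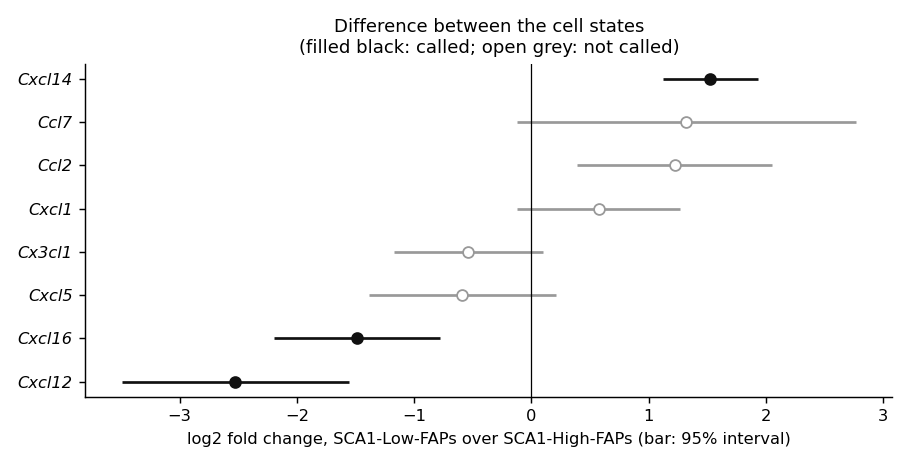
Log2 fold change between the states, positive where SCA1-Low-FAPs were higher (points), with its 95% interval (bars) for the 8 tested chemokines, n = 4 per state. Filled points are the called genes *Cxcl12* (−2.52), *Cxcl16* (−1.49) and *Cxcl14* (1.53), and open points are not called.

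The opposite moves of *Cxcl12* and *Cxcl14* changed the make-up of the chemokine mRNA. *Cxcl12* gave 53.2% to 76.0% (median 67.6%) of the counts of the 10 genes in SCA1-High-FAPs and 14.1% to 27.9% (median 20.3%) in SCA1-Low-FAPs. *Cxcl14* gave 4.22% to 8.46% in SCA1-High-FAPs and 24.0% to 44.2% in SCA1-Low-FAPs. The count ratio of *Cxcl12* to *Cxcl14*, which does not depend on library size, was 6.29 to 18.01 in SCA1-High-FAPs and 0.369 to 1.16 in SCA1-Low-FAPs, with no overlap. The shares of *Ccl2* (0.396% to 2.42% and 5.20% to 7.80%) and *Ccl7* (0.353% to 3.79% and 6.07% to 11.2%) did not overlap either. Those of *Cxcl5* overlapped, at 11.7% to 28.4% in SCA1-High-FAPs and 23.2% to 27.2% in SCA1-Low-FAPs. The 10 genes together made up 0.239% to 0.471% of all counts in SCA1-High-FAPs and 0.152% to 0.253% in SCA1-Low-FAPs. The summed level was 2358 to 4846 CPM in the former and 1524.5 to 2489 CPM in the latter, and these ranges overlapped.

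**Figure D3:**
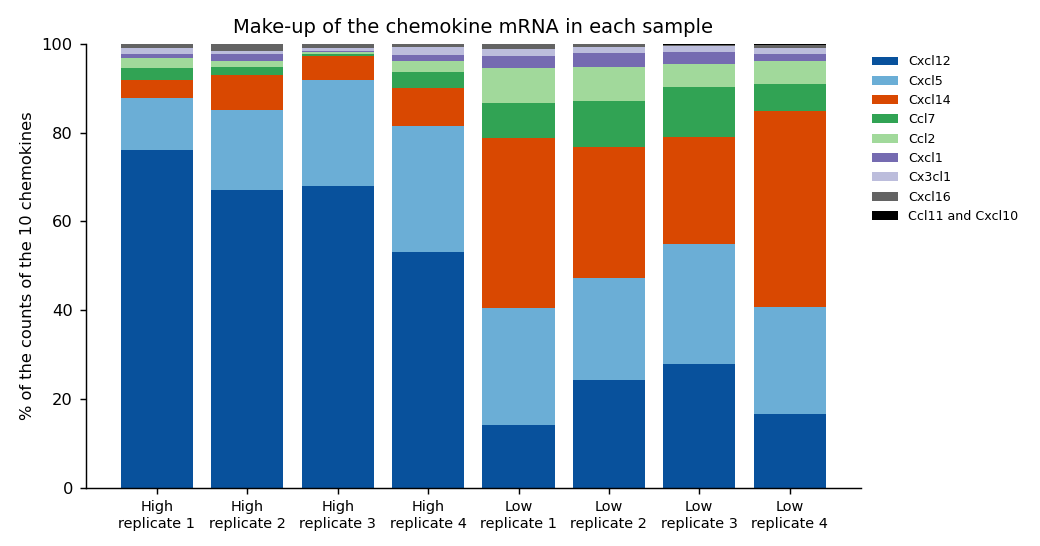
Share of the counts of the 10 chemokines (percent, stacked to 100) that each gene held in each of the 8 samples. *Cxcl12* held 53.2% to 76.0% in the 4 SCA1-High-FAPs samples and 14.1% to 27.9% in the 4 SCA1-Low-FAPs samples, where *Cxcl14* held 24.0% to 44.2%.

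Markers of adipocytes moved with *Cxcl12*. Of 8 adipocyte markers, 6 were tested and 3 were called, all higher in SCA1-High-FAPs: *Retn* (resistin, log2 fold change −4.49), *Car3* (carbonic anhydrase 3, −5.77) and *Adipoq* (adiponectin, −4.72, adjusted p = 0.0352 by edgeR). *Lep* (leptin) was at 0 in all 8 samples. The summed level of the list was 6744, 2254, 3845 and 1187 CPM in SCA1-High-FAPs replicates 1 to 4 and 206, 237, 655 and 113 CPM in SCA1-Low-FAPs replicates 1 to 4. SCA1-High-FAPs replicates 1 and 3 were the upper pair of their state both in these markers and in *Cxcl12*, though replicate 1 led in the markers and replicate 3 in *Cxcl12*. SCA1-Low-FAPs replicate 3 was the highest of its state in both. The orders of SCA1-High-FAPs replicates 2 and 4 and of SCA1-Low-FAPs replicates 1 and 4 were swapped between the markers and *Cxcl12*. Without SCA1-High-FAPs replicates 1 and 3, an alternative chosen after the data were seen, 2 of the 8 chemokines were called, *Ccl2* and *Cxcl14*, both higher in SCA1-Low-FAPs. In that fit the log2 fold change of *Cxcl12* was −1.99 (adjusted p = 0.0909 by edgeR), that of *Cxcl16* −1.22 (adjusted p = 0.149), that of *Ccl2* 1.14 (adjusted p = 0.0487) and that of *Cxcl14* 1.48 (adjusted p = 0.00393). The calls over all genes fell from 782 of 10181 tested to 244 of 10767. What part adipocyte-like cells had in the difference of *Cxcl12* was not tested.

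**Figure D4:**
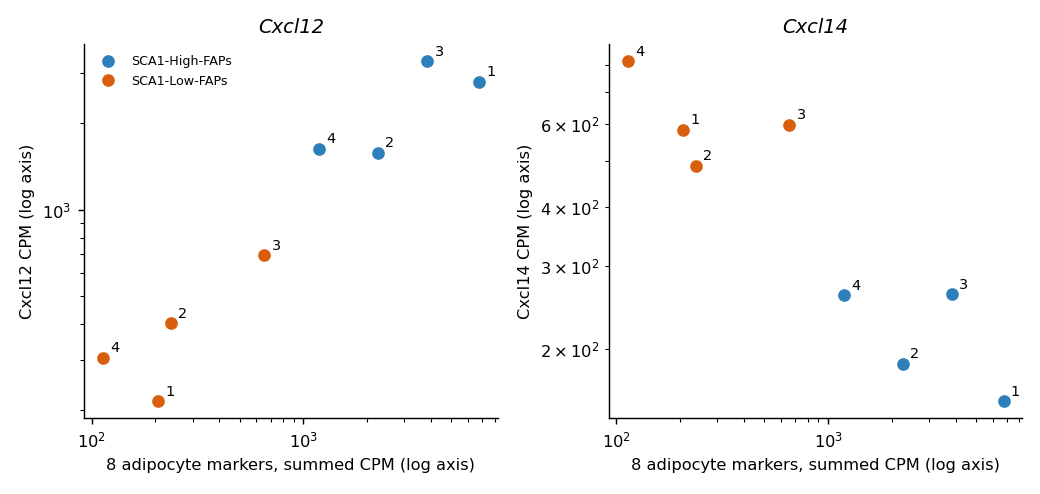
CPM of *Cxcl12* (left) and *Cxcl14* (right) against the summed CPM of 8 adipocyte markers in each sample, on log axes, with numbers for replicates. SCA1-High-FAPs (blue) ran from 1187 to 6744 summed marker CPM and SCA1-Low-FAPs (orange) from 113 to 655, and SCA1-High-FAPs replicates 1 and 3 were the upper pair of their state on both axes of the left panel.

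Markers of the cells that the sort should remove were low. Of 14 leucocyte markers, 6 were at 0 in all samples, among them the macrophage gene *Adgre1*, *Ptprc*, the gene of CD45, had 1 count in 1 sample, and the list summed to 29.8 to 55.5 CPM in SCA1-High-FAPs and 19.1 to 26.3 CPM in SCA1-Low-FAPs. *Lyz2* (lysozyme) was the only one tested, at 19.9 to 37.2 and 6.28 to 15.2 CPM (log2 fold change −1.42, adjusted p = 0.0153 by edgeR). The 8 endothelial markers summed to at most 7.39 CPM and the 8 satellite and muscle cell markers to at most 15.2 CPM in any sample, with *Pax7* and *Myod1* at 0. The 4 Schwann cell markers summed to at most 5.88 CPM. The sort had no marker against pericytes. The 7 pericyte and smooth muscle markers, of which none was at 0 throughout, summed to 26.2 to 50.4 CPM in SCA1-High-FAPs and to 29.2 to 67.0 CPM in SCA1-Low-FAPs. All 3 that were tested were called, in both directions, where 7.68% of all genes tested were. The untested genes of the list also differed in direction, and most of them had the higher mean CPM in SCA1-High-FAPs. *Cspg4* (NG2, log2 fold change 2.40, adjusted p = 0.0415 by edgeR) and *Myh11* (smooth muscle myosin, 1.85, adjusted p = 0.0232) were higher in SCA1-Low-FAPs, and *Notch3* (−1.54, adjusted p = 0.0487) was higher in SCA1-High-FAPs. The states overlapped in *Cspg4*. SCA1-Low-FAPs replicate 3, at 2.54 CPM, lay within the 1.36 to 7.06 CPM of SCA1-High-FAPs. What part such cells had in the chemokine results was not tested.

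*Cxcl16* (ENSMUSG00000018920, chromosome 11, 70453983 to 70459984, minus strand) encodes a transmembrane chemokine that also binds oxidised lipoprotein. It was read at 32.5, 35.7, 46.3 and 20.5 CPM in SCA1-High-FAPs replicates 1 to 4 and at 18.4, 8.71, 7.61 and 13.5 CPM in SCA1-Low-FAPs replicates 1 to 4. SCA1-High-FAPs replicate 4 and SCA1-Low-FAPs replicate 1 lay close to each other, on 56 and 38 counts, but the states did not overlap. The means were 33.8 ± 10.6 and 12.0 ± 4.92 CPM (SD, n = 4 each), and the log2 fold change was −1.49 (SE 0.34, 95% interval −2.20 to −0.78, adjusted p = 0.0113 by edgeR), or 2.80-fold lower in SCA1-Low-FAPs. The gene shares 552 bases with *Zmynd15* on the opposite strand, which had 12 counts in all samples together.

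*Cx3cl1* (ENSMUSG00000031778, chromosome 8, 94772009 to 94782427, plus strand), the gene of fractalkine, is the other transmembrane chemokine. It was read at 51.8, 19.4, 31.3 and 51.0 CPM in SCA1-High-FAPs and at 22.7, 23.4, 34.3 and 24.8 CPM in SCA1-Low-FAPs (replicates 1 to 4). The ranges overlapped, with SCA1-High-FAPs replicate 2 the lowest of all 8. The means were 38.4 ± 15.8 and 26.3 ± 5.37 CPM (SD, n = 4 each), and the log2 fold change was −0.54 (SE 0.30, 95% interval −1.17 to 0.10, adjusted p = 0.328 by edgeR).

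The neutrophil chemokines with the Glu-Leu-Arg codons were not called. *Cxcl5* (ENSMUSG00000029371, chromosome 5, 90759360 to 90761624, plus strand) was the chemokine with the second most reads in each state. It was read at 431, 422, 1156 and 871 CPM in SCA1-High-FAPs and at 404, 386, 676 and 446 CPM in SCA1-Low-FAPs (replicates 1 to 4). SCA1-High-FAPs replicates 1 and 2 lay within the range of SCA1-Low-FAPs, while replicates 3 and 4 lay above it. The means were 720.02 ± 358 and 478 ± 134 CPM (SD, n = 4 each), and the log2 fold change was −0.59 (SE 0.35, 95% interval −1.39 to 0.21, adjusted p = 0.396 by edgeR). *Cxcl1* (ENSMUSG00000029380, chromosome 5, 90891241 to 90893115, plus strand) was read at 34.8, 37.1, 13.4 and 41.8 CPM in SCA1-High-FAPs and at 41.1, 52.3, 67.9 and 28.5 CPM in SCA1-Low-FAPs. Its ranges also overlapped, at means of 31.8 ± 12.6 and 47.4 ± 16.7 CPM (SD, n = 4 each), and its log2 fold change was 0.57 (SE 0.33, 95% interval −0.12 to 1.27, adjusted p = 0.342 by edgeR).

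The CC chemokines of monocytes were higher in SCA1-Low-FAPs by their means but were not called. *Ccl2* (ENSMUSG00000035385, chromosome 11, 82035571 to 82037453, plus strand) was read at 77.7, 31.6, 19.2 and 74.4 CPM in SCA1-High-FAPs and at 119, 129, 129 and 97.1 CPM in SCA1-Low-FAPs (replicates 1 to 4). SCA1-Low-FAPs were close together at 119 ± 15.1 CPM, SCA1-High-FAPs were spread at 50.7 ± 29.7 CPM (SD, n = 4 each), and the states did not overlap. The log2 fold change was 1.22 (SE 0.38, 95% interval 0.39 to 2.06), and the adjusted p of 0.0791 by edgeR missed the threshold. DESeq2 called it, with a log2 fold change of 1.23 and adjusted p = 0.005. The edgeR fits without SCA1-High-FAPs replicate 1, 3 or 4 called it too, with adjusted p of 0.0413, 0.038 and 0.0479. These were 3 of the 8 fits with 1 library left out. In all, 4 of 12 alternative fits called *Ccl2*. The highest adjusted p was 0.178, by edgeR with no filter beyond 1 count. *Gm17268* covers the gene on the opposite strand and had 0 counts.

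*Ccl7* (ENSMUSG00000035373, chromosome 11, 82045712 to 82047525, plus strand) was read at 97.0, 43.4, 17.1 and 116 CPM in SCA1-High-FAPs and at 121, 173, 279 and 112 CPM in SCA1-Low-FAPs (replicates 1 to 4). The states overlapped by 1 sample on each side, and the spread was wide in both, from 17.1 to 116 and from 112 to 279 CPM. The means were 68.4 ± 46.0 and 171 ± 76.7 CPM (SD, n = 4 each), and the log2 fold change was 1.32 (SE 0.61, 95% interval −0.12 to 2.77, adjusted p = 0.277 by edgeR). *Ccl11* (ENSMUSG00000020676, chromosome 11, 82057823 to 82062955, plus strand) had 31 counts in all, namely 0, 0, 2 and 4 in SCA1-High-FAPs and 1, 3, 11 and 10 in SCA1-Low-FAPs (replicates 1 to 4). It was not tested, and at this depth no difference could be shown.

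**Figure D5:**
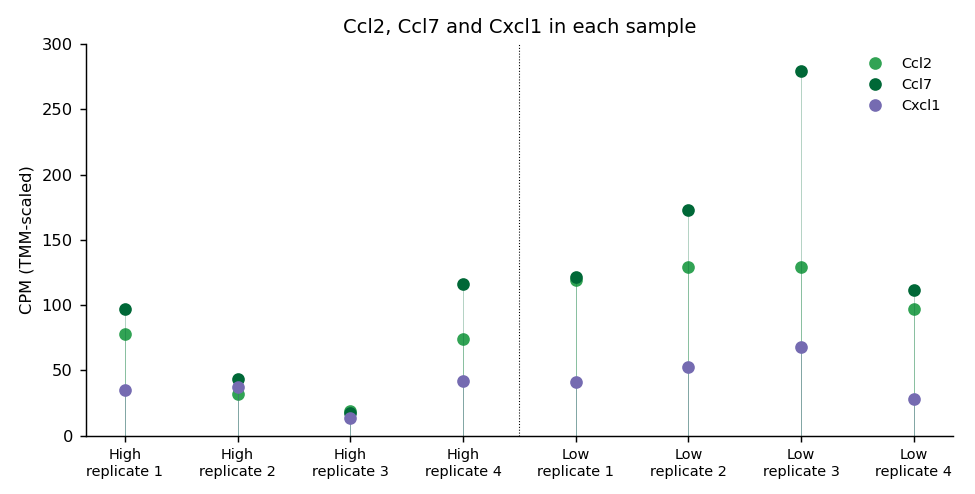
CPM of *Ccl2*, *Ccl7* and *Cxcl1* in each of the 4 SCA1-High-FAPs and 4 SCA1-Low-FAPs samples. All 3 genes were lowest in SCA1-High-FAPs replicate 3, at 19.2, 17.1 and 13.4 CPM.

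*Cxcl10* (ENSMUSG00000034855, chromosome 5, 92346638 to 92348889, minus strand) had 5 counts, all in SCA1-High-FAPs replicate 4, and 0 in the other 7 samples. It lies within *Art3* on the opposite strand, which had 97 counts. The strand setting of the counting is not given, and whether this overlap cost *Cxcl10* counts was not tested. *Cxcl9*, a neighbouring ligand of the same receptor CXCR3, was read at 2.20 to 26.3 CPM in SCA1-High-FAPs and at 0 to 6.53 CPM in SCA1-Low-FAPs (log2 fold change −2.65, SE 0.78, adjusted p = 0.0539 by edgeR), which missed the threshold. DESeq2 (adjusted p = 0.00527) and edgeR with no filter (adjusted p = 0.0113) called it, and edgeR with the replicate block did not (adjusted p = 0.104). With 1 library left out, it was called only without SCA1-High-FAPs replicate 4 or SCA1-Low-FAPs replicate 2. Without SCA1-High-FAPs replicates 1 and 3 its adjusted p was 0.404 by edgeR.

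Within the states *Ccl2*, *Ccl7* and *Cxcl1* varied together, and *Cxcl16* varied against them. After the mean of each state was taken off the log2 CPM, Pearson's r over the 8 samples was 0.932 for *Ccl2* and *Ccl7*, 0.885 for *Ccl7* and *Cxcl1* and 0.743 for *Ccl2* and *Cxcl1*, out of 28 pairs of tested chemokines. It was −0.803 for *Ccl7* and *Cxcl16*, −0.739 for *Cxcl1* and *Cxcl16* and −0.61 for *Ccl2* and *Cxcl16*, and 0.702 for *Ccl2* and *Cx3cl1*. SCA1-High-FAPs replicate 3, lowest in these 3 genes, was the highest in *Cxcl5* and *Cxcl12*. These values are descriptions, since the genes of a sample share its library and its depth.

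For each tested chemokine the most similar genes over the 8 samples were found by Pearson's r of log2 CPM. *Cxcl12* was followed most closely by *Man1a* (a Golgi mannosidase, r = 0.993), *Epas1* (the hypoxia-inducible factor HIF-2 alpha, r = 0.992) and *Aoc3* (an amine oxidase of adipocytes and smooth muscle, r = 0.989), all called higher in SCA1-High-FAPs, with log2 fold changes of −1.32, −2.31 and −1.18. *Cxcl14* was followed by *Tagln2* (an actin-binding protein, r = 0.977), *Timp1* (an inhibitor of metalloproteinases, r = 0.976) and *Rpn1* (a subunit of the oligosaccharyltransferase, r = 0.975), all called higher in SCA1-Low-FAPs, with log2 fold changes of 0.78, 0.96 and 0.61. *Ccl2* was closest to *Map2k3* and *Cd44* (r = 0.983 each) and *Srcap* (r = 0.982), of which *Cd44*, the hyaluronan receptor, was called (log2 fold change 1.10). *Ccl7* was closest to *Plpp1*, *Gnpnat1* and *Magohb*, *Cxcl1* to *Ampd2*, *Kdelr2* and *Bcar1*, and *Cxcl5* to *Smim4*, *Gm5617* and *Zfp772*, and none of these was called. *Cxcl16* was closest to *Cdk14*, *Gaa* and *Diaph2*, of which *Gaa*, the lysosomal glucosidase, was called (log2 fold change −0.60). Each of the 8 chemokines had partners with r of at least 0.954 among 10181 genes over 8 samples. The difference between the states was left in these values. Partners of a gene that differs between the states therefore tend to differ in the same direction, and their calls are no separate result.

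Promoter sequences of 5 of the 10 genes were given by RefSeq (GRCm38.p6), and those of the 2 called genes with a promoter and of 2 genes with known inflammatory elements are shown, 250 bases before the transcript start, 5′ to 3′ on the gene's strand. Capitals mark matches to the searched patterns. These were κB, the interferon-response pattern GAAANNGAAA, the AP-1 pattern TGANTCA, the C/EBP pattern TTNNGCAA, the hypoxia-response core ACGTG and the TATA box TATAAA, on both strands.
Cxcl12, chr6:117168285-117168534, plus strand: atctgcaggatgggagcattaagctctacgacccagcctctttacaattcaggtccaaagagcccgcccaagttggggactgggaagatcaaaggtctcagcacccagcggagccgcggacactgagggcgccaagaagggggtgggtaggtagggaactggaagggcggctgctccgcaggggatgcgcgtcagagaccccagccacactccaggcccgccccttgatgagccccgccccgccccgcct
Cxcl14, chr13:56296552-56296801, minus strand: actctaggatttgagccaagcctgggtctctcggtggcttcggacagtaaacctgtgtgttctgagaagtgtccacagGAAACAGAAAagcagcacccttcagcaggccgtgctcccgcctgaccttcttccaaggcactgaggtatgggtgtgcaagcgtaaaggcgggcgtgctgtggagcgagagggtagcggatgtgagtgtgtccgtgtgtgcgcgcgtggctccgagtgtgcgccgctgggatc
Cxcl1, chr5:90890995-90891244, plus strand: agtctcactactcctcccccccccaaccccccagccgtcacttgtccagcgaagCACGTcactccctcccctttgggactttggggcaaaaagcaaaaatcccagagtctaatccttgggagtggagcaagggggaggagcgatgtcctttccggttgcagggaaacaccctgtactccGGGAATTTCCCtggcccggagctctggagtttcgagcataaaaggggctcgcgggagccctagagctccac
Cxcl10, chr5:92348890-92349139, minus strand: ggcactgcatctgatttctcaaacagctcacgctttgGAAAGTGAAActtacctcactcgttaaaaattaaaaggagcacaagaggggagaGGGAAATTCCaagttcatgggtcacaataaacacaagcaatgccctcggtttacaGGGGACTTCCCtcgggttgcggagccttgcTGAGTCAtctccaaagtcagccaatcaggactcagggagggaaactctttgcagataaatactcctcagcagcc

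The *Cxcl12* window held none of the 6 patterns, 14 CpG sites and 64.4% G and C, against medians of 6 CpG sites and 52.4% over 32851 promoters of the same length. The *Cxcl14* window held 16 CpG sites and 1 match, to the interferon-response pattern, 172 to 163 bases before the start. That of *Cxcl1* held 2 overlapping κB matches and 1 match to the hypoxia-response core, and that of *Cxcl10* held 3 κB matches, 2 of them overlapping, with 1 interferon-response and 1 AP-1 match. The *Cx3cl1* window, not printed, held TATAAA 6 to 1 bases before the RefSeq start. That window ends at base 94772179 of chromosome 8. The GENCODE gene starts at 94772009, so by that annotation the match lies inside the gene. Of all promoters 7.251% held the κB pattern, 2.977% the interferon-response pattern, 6.749% the AP-1 pattern, 9.564% the C/EBP pattern, 16.572% the hypoxia-response core and 12.368% the TATA box. A match is a match of letters only.

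The other chemokine ligands had 36 gene identifiers under 31 names, since copies on scaffolds outside the chromosomes have identifiers of their own. Of the 31, 15 were at 0 in all samples. Of the identifiers 4 were tested and 0 were called by edgeR, with 2 at an unadjusted p under 0.05, whereas DESeq2 called 2. *Ccl9*, a ligand of CCR1, was read at 66.5 to 231 CPM in SCA1-High-FAPs and at 10.2 to 48.5 CPM in SCA1-Low-FAPs (log2 fold change −2.54, SE 0.63, adjusted p = 0.0551 by edgeR and 0.00204 by DESeq2). The alternative edgeR fit with a block for the replicate number called *Ccl9* (adjusted p = 0.000105). The edgeR fit with no filter did not (adjusted p = 0.0974). *Ccl8* (0.79, adjusted p = 0.485) and *Ccl25* (0.24, adjusted p = 0.86) were not called. Of the chemokine receptors 13 of 23 were at 0 in all samples, among them *Ccr1*, *Ccr2*, *Ccr3*, *Cxcr2*, *Cxcr3* and *Ackr2*, the receptors of several of the ligands. *Cxcr6* had 2 counts, and *Cx3cr1*, *Ackr1* and *Ackr4* had at most 7, 14 and 17 counts in a sample. The *Cxcl12* receptor *Cxcr4* had 5 counts in SCA1-Low-FAPs replicate 3, 1 in replicate 4 and 0 in the other 6 samples. The scavenging receptor *Ackr3*, which also binds CXCL12, was the only receptor tested, at 4.07 to 12.5 and 0.483 to 12.4 CPM (log2 fold change 0.22, SE 0.64, adjusted p = 0.894 by edgeR). Its unadjusted p was not under 0.05. DESeq2 and the edgeR fit with no filter, which took in the receptors with at least 1 count, called 0.

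The lists of pathways that act on chemokine transcription and mRNA stability had 5% (NF-κB), 14.3% (interferon) and 11.1% (mRNA decay) of their tested genes called, against 7.68% of all genes tested. In the NF-κB list 1 of 20 tested genes was called, *Tnfrsf1b*, the TNF receptor 2, at 16.1 to 28.9 CPM in SCA1-High-FAPs and 37.6 to 49.3 CPM in the other state (log2 fold change 0.99, SE 0.26, adjusted p = 0.0270 by edgeR), with a median log2 fold change of −0.26 over the list. That call was lost in 4 of the 8 fits with 1 library left out, namely without SCA1-High-FAPs replicate 3 or 4 or SCA1-Low-FAPs replicate 1 or 4 (adjusted p at most 0.0894). In the interferon pathway list 2 of 14 were called, both higher in SCA1-High-FAPs: *Ifngr1* (interferon gamma receptor, −1.19, SE 0.19, adjusted p = 0.00119) and *Ifnar2* (type I interferon receptor, −1.01, SE 0.22, adjusted p = 0.00942), with a median of −0.59. *Ifngr1* was read at 106 to 187 and 54.6 to 67.6 CPM, and *Ifnar2* at 83.6 to 185 and 51.7 to 71.7 CPM. Among 9 tested genes for the decay of short-lived cytokine mRNAs, *Zfp36l1*, an AU-rich element binding protein, was called at 316 to 432 and 141 to 260 CPM (−0.92, SE 0.18, adjusted p = 0.00457), with a median of 0.22.

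The next lists were proteases that can act on chemokines and genes of heparan sulfate synthesis and proteoglycans. They had 14.3% and 10.5% of their tested genes called, against 7.68% of all genes tested. Of 7 tested proteases, *Ctsb* (cathepsin B) was called at 242 to 417 CPM in SCA1-High-FAPs and 167 to 232 CPM in SCA1-Low-FAPs (−0.77, SE 0.17, adjusted p = 0.0101 by edgeR), and the median was −0.21. *Adam10* (0.06, adjusted p = 0.894) and *Adam17* (−0.39, adjusted p = 0.183), the proteases that shed CX3CL1 and CXCL16, were not called. Of 19 tested heparan sulfate genes 2 were called, *Gpc1* (glypican-1), 61.2 to 83.1 and 108 to 157 CPM (0.86, SE 0.17, adjusted p = 0.00535), and *Gpc3* (glypican-3), 22.2 to 59.3 and 6.07 to 14.0 CPM (−1.90, SE 0.36, adjusted p = 0.00336), in opposite directions, and the median was 0.08. *Ifngr1*, *Ifnar2*, *Zfp36l1*, *Ctsb*, *Gpc1* and *Gpc3* were called in all 12 alternative fits fixed for them, but without SCA1-High-FAPs replicates 1 and 3 together *Ifngr1* stayed called and the other 5 did not.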

How the data were processed

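RNA of 8 cultures of sorted *mdx* FAPs was made into 3′ mRNA libraries (QuantSeq FWD), so that reads lie near transcript ends. The authors trimmed the reads, aligned them with STAR to mm10 and assigned them to Ensembl genes with htseq-count, and the deposited values are raw counts per gene, not normalised. The strand setting is not given in the sources used here. Genes were named with GENCODE M21, which matched 31011 of 31053. Counts were tested with edgeR 4.0.16 (quasi-likelihood, robust, TMM, filterByExpr with a minimum count of 10 and a total of 15), 4 against 4 samples, with Benjamini-Hochberg adjustment over 10181 genes. CPM are TMM-scaled. The standard error is the log2 fold change over the root of F. DESeq2 1.42.0, other scaling, no filter, a replicate block and leaving out libraries were alternatives. The code was tested on simulated data. Library totals of 1880561 to 3985656 set the precision. Members and lists were chosen with earlier results of these data known. Named genes were all members, other ligands passing the filter, the members' receptors, called list genes, 3 marker genes per list at most (*Lep*, *Gsn* and *Thy1* were added after their values were seen), and the 3 most similar genes. A few genes that this rule names are not reported here.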

Additional observations from a re-analysis of the deposited data

Results flagged for a closer look

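*Cxcl1* in SCA1-High-FAPs had 1 sample far from the others. Replicate 3 was read at 13.4 CPM and the other 3 samples at 34.8 to 41.8 CPM, and on the log2 CPM scale the gap to its nearest neighbour was 0.838 of the whole range, over Dixon's critical value for 4 samples. It was 1 of 16 groups of a tested chemokine and a state examined in this way, and chance gives about 1 in 20. The same library was also the lowest in *Ccl2* and *Ccl7*. Without it *Cxcl1* was still not called.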

How the results depend on the processing

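The 8 tested chemokines kept their direction in all 12 alternative fits. *Cxcl14* and *Cxcl16* kept their calls in all 12 and *Cxcl12* in 11. The number of chemokines called was 2 to 4 against 3. When 1 library was left out, the calls over all genes ranged from 410 of 10344 tested to 1017 of 10330, against 782 of 10181. *Ccl2* was called in 4 of the 12. Its log2 fold change was 1.23 with DESeq2, which called it, and 0.95 to 1.49 when 1 library was left out. For *Cxcl12* it was −2.93 to −2.31 then, and the call was lost without SCA1-Low-FAPs replicate 4 (−2.42). Other chemokine ligands called, 0, rose to 2 with DESeq2, and to 1 with no filter beyond 1 count and with the replicate block, and were 0 to 1 with 1 library left out. The NF-κB list gave 2 calls with the replicate block and 0 to 1 with 1 library left out, and the protease list 2 with no filter and 1 to 2 with 1 library left out. Without SCA1-High-FAPs replicates 1 and 3 (chosen after the data were seen), 244 of 10767 tested genes were called. The interferon list then gave 1 call, and the NF-κB, mRNA decay, protease and heparan sulfate lists gave 0. *Ccl2* was called at 1.14, and *Cxcl12* (−1.99) and *Cxcl16* (−1.22) were not. That fit has fewer samples, and the cause was not tested. The labels do not say that equal replicate numbers mark a mouse, and the deviations of same-numbered samples correlated at −0.0502 to 0.00673. The replicate block was therefore kept as an alternative. It gave 697 of 10181 tested genes called and 3 chemokines, and *Ccl2* stayed uncalled at 1.39 (adjusted p = 0.0553 by edgeR). *Ccl11* and *Cxcl10*, with 31 and 5 counts in all, were too shallow for the filter. Neither was called by DESeq2 or with no filter.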
